A study of Homo sapiens with 8 samples.

Results

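Caveolae genes were examined in CAKI1, a human cell line established from a renal carcinoma. The set holds 7 genes chosen by name, namely the cavins CAVIN1, CAVIN2 and CAVIN3, the caveolins CAV1 and CAV2, and the neck proteins EHD2 and PACSIN2, out of 16782 genes in the deposited table. All 7 passed the filter on low values, as did 15593 genes in all. The set was put together with results of the same comparison in view, because CAVIN2 is one of the genes that the study lists as changed. The comparison between treated and control cells is therefore described for these genes. Which of them passed a threshold in the fits across all genes is given once as a count, and it is not a test of the set. Control cells were unstimulated CAKI1 cells (4 samples). Treated cells were CAKI1 cells stimulated for 24 h with 5 µg/mL holo Lcn-2, the iron-loaded form of lipocalin-2, called hLcn-2 here (4 samples). The cells were deprived of serum for 24 h before stimulation, and both groups carry the numbers 1 to 4 in their labels. The labels do not say whether the samples came from separate cultures, so the spread between them may be partly technical. A single cell line was used.

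Caveolae are small flask-shaped pits of the plasma membrane that are rich in cholesterol and sphingolipids. Caveolins are hairpin proteins inserted into the inner leaflet, and cavins are soluble proteins that assemble on them as a coat. CAVIN1 is needed for caveolae to form, while CAVIN2 and CAVIN3 are further coat subunits. EHD2, an ATPase, sits at the neck and holds caveolae at the surface, and PACSIN2 is an F-BAR protein that bends the membrane there. Caveolae flatten when the membrane is stretched, and they are abundant in endothelial cells, adipocytes and muscle. CAVIN2 was first described as a gene that responds to serum deprivation and as a phosphatidylserine-binding substrate of protein kinase C.

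The libraries were made with a kit that reads the 3′ end of mRNA and carries molecular identifiers, so that a transcript gives about 1 tag whatever its length. Values are normalized counts scaled to library size (CPM) and were not divided by transcript length. Depth ranged from 1501563 to 13953090 reads per sample, with the lowest depth in control 4. The median depth was 9216758.5 reads in controls and 5796022 in hLcn-2 samples. The table contained 7 of 8 listed kidney tubule and renal carcinoma markers, whose summed level was 513.7 to 611.7 in controls and 532.1 to 650.7 in hLcn-2 samples. PAX8, the transcription factor that marks renal epithelium, had 205.2 to 245.3 in controls and 200.9 to 241.8 after hLcn-2, whereas CA9 was not listed. None of 4 endothelial markers was listed in the table, and the adipocyte markers (1 of 4 listed), smooth muscle and fibroblast markers (2 of 5) and leukocyte markers (1 of 4) summed to at most 1.97, 10.5 and 1.59 in any sample. In RNA of whole cultures, less RNA per cell and fewer cells that carry the RNA cannot be told apart.

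The members lie on 6 chromosomes of GRCh38. CAVIN2 (ENSG00000168497) spans positions 191834310 to 191847088 of chromosome 2 on the minus strand, and its canonical transcript has 2 exons and encodes 425 residues. The annotated 3′ untranslated region, 1613 nt long, is part of the last exon (191834310 to 191836717). The kit reads the 3′ end of mRNA, and where in this region the reads fell was not examined. CAVIN1 (ENSG00000177469) spans 42402449 to 42423256 of chromosome 17 and CAVIN3 (ENSG00000170955) 6318946 to 6320532 of chromosome 11, both on the minus strand. Like CAVIN2 they have 2 exons. CAV2 (ENSG00000105971) and CAV1 (ENSG00000105974) are neighbours on the plus strand of chromosome 7, where CAV1 spans 116524994 to 116561179 and starts 16452 nt beyond the end of CAV2. EHD2 (ENSG00000024422) spans 47713422 to 47743134 of chromosome 19 on the plus strand, and PACSIN2 (ENSG00000100266) 42835412 to 43015149 of chromosome 22 on the minus strand. In GENCODE 44 a gene without a symbol, ENSG00000282556, overlaps the last exon of CAVIN3 on the opposite strand. It is not listed in the deposited table, and whether counting used the strand is not given in the sources used here, so reads of the 2 genes may not be told apart. For the other 6 members no exon of another gene overlaps the last exon.

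RefSeq promoter sequences (GRCh38.p14) were matched for 5 of the 7 members by symbol, with 13 starts in all, and not for CAVIN1 and CAVIN3. CAVIN2 and EHD2 had 1 start, CAV2 had 2, CAV1 had 3 and PACSIN2 had 6, and the most upstream start of CAV1 and CAV2 is shown. The 250 bases before the start of CAVIN2 (chr2:191847089-191847338, minus strand) are shown because this gene differed most between the groups, beside those of CAV1 (chr7:116524759-116525008, plus strand) and CAV2 (chr7:116499488-116499737, plus strand). All are written 5′ to 3′ and end at the base before the start. Capitals mark matches on either strand to GGGCGG or to GGAATG. These letters, and the others named next, were chosen after the sequences had been seen.
CAVIN2: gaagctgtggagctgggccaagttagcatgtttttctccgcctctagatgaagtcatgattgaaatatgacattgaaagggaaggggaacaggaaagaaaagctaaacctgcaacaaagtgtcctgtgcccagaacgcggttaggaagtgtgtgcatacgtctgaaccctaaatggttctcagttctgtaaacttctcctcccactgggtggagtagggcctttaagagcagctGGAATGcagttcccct
CAV1: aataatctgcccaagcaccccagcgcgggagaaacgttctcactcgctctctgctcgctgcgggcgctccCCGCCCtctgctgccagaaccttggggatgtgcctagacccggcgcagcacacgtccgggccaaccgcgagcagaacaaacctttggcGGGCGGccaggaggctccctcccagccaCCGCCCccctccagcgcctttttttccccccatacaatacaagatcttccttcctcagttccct
CAV2: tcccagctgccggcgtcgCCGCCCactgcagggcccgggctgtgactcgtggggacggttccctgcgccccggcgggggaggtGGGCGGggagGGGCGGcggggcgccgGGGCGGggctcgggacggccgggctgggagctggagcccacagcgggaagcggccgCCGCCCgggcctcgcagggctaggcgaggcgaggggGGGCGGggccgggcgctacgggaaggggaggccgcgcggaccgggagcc
The CAVIN2 sequence had a GC content of 48.0% and 4 CpG dinucleotides, compared with 63.6% and 18 for CAV1 and 83.2% and 35 for CAV2. The other starts of CAV1 had 63.2% and 73.2% GC, and the other start of CAV2 had 70.0%. CAVIN2 was not alone in its low GC content, since 5 of the 6 PACSIN2 windows, some of which overlap, had from 46.4% GC up to a value below the median given next, with 2 to 4 CpG, and 4 of these held GGAATG. Over 35114 RefSeq promoters of the same length the median was 58.0% and 11 CpG. The letters GGGCGG, the core of the GC box, stood in the sequences of CAV1 and CAV2 and in 42.6% of all promoters, but not in that of CAVIN2. The CAVIN2 sequence held GGAATG, the core of the MCAT element, from 16 to 11 bases before the start. These letters are found in 11.9% of all promoters. The letters TATAAA (in 10.7% of all promoters), CCAAT (32.01%) and TGACTCA (4.20%) were absent from the 3 windows shown. Matches of letters are a description of the sequence and were not tested for binding.

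The cavin mRNAs, which encode the coat, were lower after hLcn-2 in each of the 4 pairs for CAVIN2 and CAVIN1, and in 2 of them for CAVIN3. CAVIN2 had normalized counts of 54.6, 31.1, 75.1 and 115.9 in controls 1 to 4, and of 23.8, 18.6, 45.9 and 69.4 in hLcn-2 samples 1 to 4. The groups overlapped, since 45.9 and 69.4 in hLcn-2 samples lie above 31.1 in control 2, but within each number the hLcn-2 sample was the lower one. The means were 69.2 ± 36.0 in controls and 39.4 ± 23.2 in hLcn-2 samples (SD, n = 4). The log2 difference, hLcn-2 minus control, was -0.83 on the scale of log2(normalized count + 1), with a standard error of 0.43 in limma without the replicate number and of 0.11 with the replicate number as a block. Within the pairs the log2 differences were -1.17, -0.71, -0.70 and -0.73. Pair 1 thus differed most, and the other 3 pairs were close to each other. Among the 9006 genes with a mean of at least 10 CPM, CAVIN2 had the 2nd lowest log2 difference. This rank takes no account of the spread between samples, and CAVIN2 was chosen with this comparison in view.

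The counts behind CAVIN2 were modest, with 93 to 775 reads per sample. In pair 3, which holds the shallowest hLcn-2 sample, the exact Poisson 95% interval was 68.1 to 82.6 in the control and 37.1 to 56.2 in the hLcn-2 sample. In pair 4, whose control had the lowest depth, it was 99.4 to 134.3 and 62.0 to 77.4. The intervals of the control and the hLcn-2 sample did not overlap in any of the 4 pairs, which was also so for CAVIN1. They cover counting error only, and intervals without overlap were not particular to these 2 genes. For CAV1 they were 1253 to 1291 in control 2 and 1386 to 1442 in hLcn-2 sample 2. In pair 3 the direction was the opposite, with 1352 to 1413 in the control and 1189 to 1286 in the hLcn-2 sample. The log2 difference of CAVIN2 was -0.53 without control 4 and -0.54 without hLcn-2 sample 2. With a whole pair left out, it lay between -0.87 and -0.71.

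CAVIN1, the cavin that is needed for caveolae, had 405.6, 383.7, 246.6 and 484.6 in controls 1 to 4. After hLcn-2 it had 296.2, 317.7, 189.6 and 369.0. Each hLcn-2 sample lay below the control of its number, while the groups overlapped because both samples with number 3 were low. The means were 380.2 ± 99.0 (SD, n = 4) and 293.1 ± 75.5 (SD, n = 4), a log2 difference of -0.37 with a standard error of 0.23 without the block and 0.071 with it. The differences in the pairs ran from -0.45 to -0.27, so that the SD over the pairs (0.075) was smaller than that over the controls (0.41). The difference of CAVIN1 was -0.57 without control 3, -0.24 without control 4 and -0.18 without hLcn-2 sample 3. With a whole pair left out, it lay between -0.41 and -0.35.

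CAVIN3, which binds protein kinase C delta, had 98.3, 70.0, 49.0 and 88.2 in controls 1 to 4 and 77.0, 80.6, 38.5 and 106.3 in hLcn-2 samples 1 to 4. It was lower in 2 pairs and higher in 2 pairs. Its log2 difference of -0.055 was smaller than its standard error of 0.29 without the block and of 0.12 with it. The sum of the 3 cavins was 558.5, 484.8, 370.7 and 688.8 in controls and 396.9, 416.8, 274.0 and 544.7 after hLcn-2, lower in each pair. CAVIN2 made up 9.77%, 6.42%, 20.3% and 16.8% of this sum in controls 1 to 4. In hLcn-2 samples 1 to 4 its share was 5.99%, 4.46%, 16.8% and 12.7%. Within each number the share was smaller after hLcn-2, but numbers 3 and 4 had larger shares in either group than numbers 1 and 2. CAVIN1 held between 66.5% and 79.1% of cavin mRNA in every sample.

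**Figure D1:**
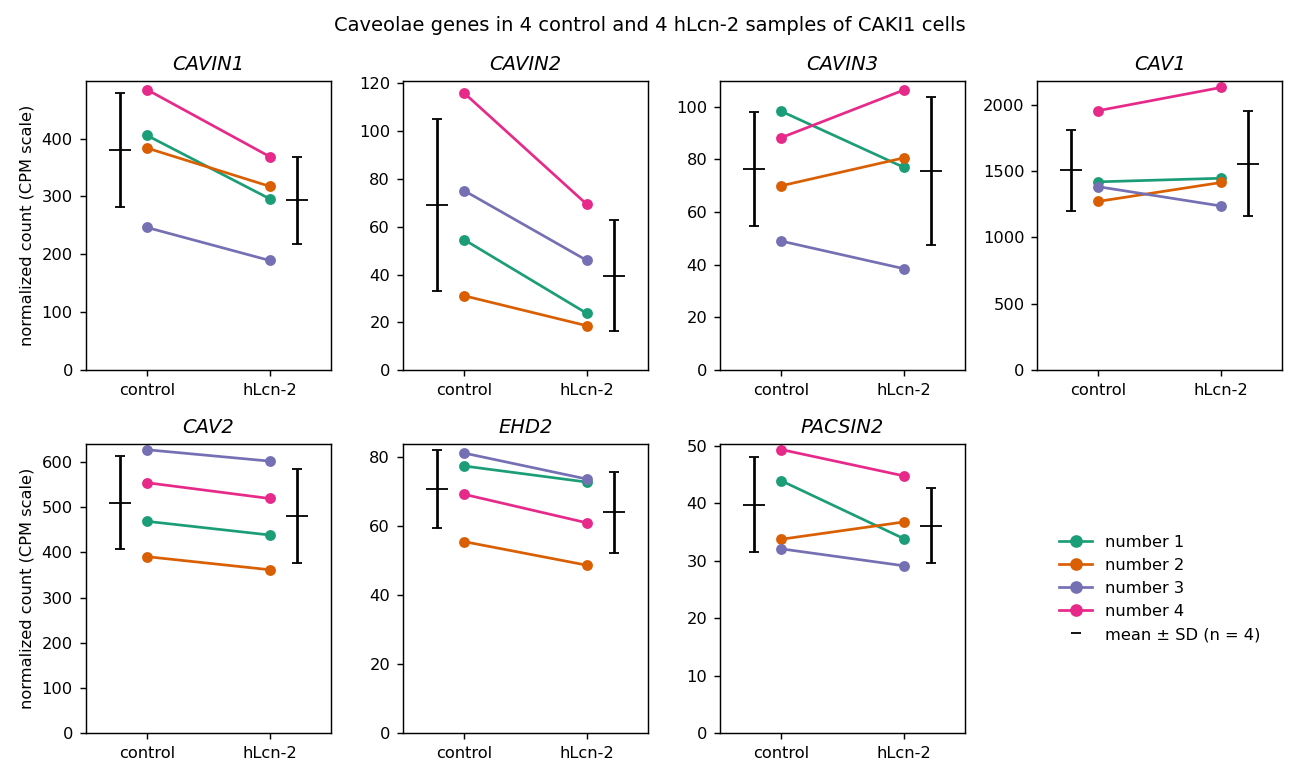
Normalized counts (CPM scale, each axis from 0) of the 7 caveolae genes in control and hLcn-2 samples, with lines joining the same number and black bars for the mean and SD of 4 samples. For CAVIN2 and CAVIN1 all 4 lines slope down, and CAVIN3 has 2 lines in each direction.

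The caveolins, which form the membrane scaffold of the pit, differed little between the groups. CAV1 was the most abundant member, with 1419, 1272, 1382 and 1955 in controls 1 to 4. It had 1446, 1414, 1237 and 2130 in hLcn-2 samples 1 to 4. The means were 1507 ± 305.3 (SD, n = 4) and 1557 ± 393.0 (SD, n = 4). The log2 difference of 0.036 was below its standard error of 0.19 without the block and of 0.077 with it, and CAV1 was higher in 3 of 4 pairs. CAV2, which forms hetero-oligomers with CAV1, had 468.9, 390.6, 627.5 and 554.4 in controls and 438.6, 361.6, 602.3 and 519.5 after hLcn-2. It was lower in each of the 4 pairs by a small amount, with log2 differences between -0.11 and -0.059. The mean difference of -0.090 had a standard error of 0.19 without the block and 0.068 with it. Its spread over the pairs (SD 0.022) was smaller than that of any other member.

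Both neck proteins had slightly lower mean levels after hLcn-2. EHD2 had 77.3, 55.4, 81.1 and 69.1 in controls 1 to 4 and 72.7, 48.6, 73.6 and 60.9 in hLcn-2 samples 1 to 4. It was lower in 4 of 4 pairs, by log2 differences of -0.19 to -0.088, and the mean of -0.15 had a standard error of 0.17 without the block and 0.087 with it. Without 1 sample the difference of EHD2 ranged from -0.26 (control 2 left out) to -0.025 (hLcn-2 sample 2 left out). PACSIN2 had 43.95, 33.8, 32.1 and 49.4 in controls and 33.8, 36.8, 29.1 and 44.8 after hLcn-2. It was lower in 3 pairs and higher in pair 2. Its log2 difference was -0.13, with a standard error of 0.19 without the block and 0.11 with it. Without 1 sample it ranged from -0.24 (hLcn-2 sample 4 left out) to -0.021 (control 4 left out). For both genes the groups overlapped over most of their range.

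**Figure D2:**
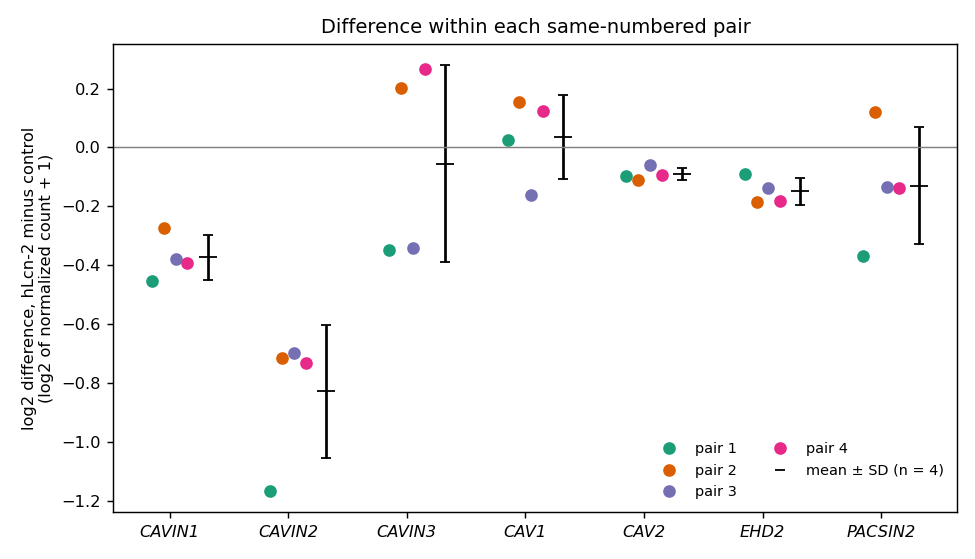
Log2 difference (hLcn-2 minus control, log2 of normalized count + 1) of each caveolae gene in the 4 same-numbered pairs, with the mean and SD of the pairs in black. CAVIN2 lies between -1.17 and -0.70 and CAVIN1 between -0.45 and -0.27, while CAV2 and EHD2 lie just below 0 in every pair.

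Counted over the set, 4 of 7 members (CAVIN1, CAVIN2, CAV2 and EHD2) were lower in all 4 pairs, as were 10.9% of all genes tested, and 0 were higher in all 4 pairs, compared with 9.93% of all genes. None of the 7 had groups without overlap, where 0.988% of genes tested lay without overlap and lower after hLcn-2. In limma without the block 0 members had an adjusted p-value under 0.05 (Benjamini-Hochberg), as did 0.00% of genes tested, with 355 genes at an unadjusted p-value under 0.05. With the replicate block limma called 1 member, CAVIN2, among 0.282% of genes called in either direction and 0.0641% called lower. This call was lost without pair 2, without pair 3 and without the intensity trend of the fit. On recovered reads, edgeR (quasi-likelihood test, replicate block) called 2 members, CAVIN2 and CAVIN1, both lower, among 0.372% of genes called lower. The median log2 difference was -0.13 over the members and 0.00083 over all genes tested. As the set was assembled with this comparison known, nothing is read from these shares.

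By mean level in controls the order was CAV1, CAV2, CAVIN1, CAVIN3, EHD2, CAVIN2 and PACSIN2. CAV1 stood above every other member in every sample. CAV2 and CAVIN1 overlapped over the controls, as did CAVIN3, EHD2 and CAVIN2, whose control means were 76.4 ± 21.7, 70.7 ± 11.4 and 69.2 ± 36.0 (SD, n = 4). PACSIN2 had the lowest mean, with 39.8 ± 8.27 (SD, n = 4). The same order of means was seen after hLcn-2, CAVIN3 at 75.6 ± 28.0, EHD2 at 63.9 ± 11.7, CAVIN2 at 39.4 ± 23.2 and PACSIN2 at 36.1 ± 6.58 (SD, n = 4). The 2 lowest genes overlapped, since PACSIN2 stood above CAVIN2 in control 2 (33.8 against 31.1). It also did so in hLcn-2 samples 1 (33.8 against 23.8) and 2 (36.8 against 18.6), and stood below CAVIN2 in the remaining samples. The levels are of 3′ tags, and how well each 3′ end is captured can differ between genes.

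CAVIN2 was also the member that varied most between samples of a group. Its highest control was 3.72 times its lowest, and its highest hLcn-2 sample 3.73 times its lowest. For the other members this range was 1.46 to 2.01 in controls and 1.51 to 2.76 after hLcn-2. The SD of the log2 level of CAVIN2 over the 4 controls was 0.78, higher than for 97.6% of genes with a mean of at least 10 CPM. CAVIN2 had the same order of numbers in both groups, with number 4 highest, then 3, 1 and 2. Numbers 3 and 4 were also the shallower libraries, with 5799151 and 1501563 reads in controls and 2088266 and 4619920 after hLcn-2. Numbers 1 and 2 had 6972124 reads or more in either group. Whether depth bears on the CAVIN2 order was not tested. Relative to the group mean, CAVIN2 was 0.89 above in control 4 and 0.98 above in hLcn-2 sample 4 on the log2 scale. In the samples with number 2 the deviations were -0.97 and -0.86.

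The members did not share one pattern over the numbers. CAVIN1 and CAVIN3 were lowest in number 3 in both groups, with deviations from the group mean of -0.58 and -0.58 for CAVIN1 and of -0.58 and -0.87 for CAVIN3. CAVIN2 and CAV2 were above the group mean in the same libraries, CAVIN2 by 0.27 and 0.40 and CAV2 by 0.32 and 0.35. CAV2 and EHD2 were highest in number 3 and lowest in number 2, and CAV1 was highest in number 4. Over all genes tested, the deviations of same-numbered samples from their group means had correlations of 0.31 to 0.61 (mean 0.50). These are across genes, which are not independent replicates.

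**Figure D3:**
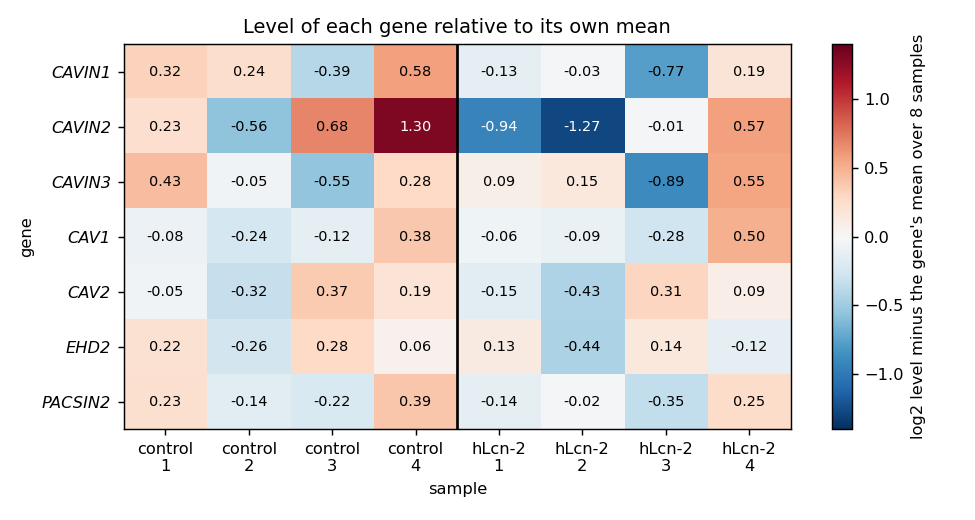
Log2 level of each caveolae gene minus its own mean over the 8 samples, printed in each cell and coloured from blue (below the mean) to red (above). CAVIN2 runs from -1.27 in hLcn-2 sample 2 to 1.30 in control 4, and CAVIN1 and CAVIN3 are lowest in hLcn-2 sample 3.

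Percentages of one member relative to another in the same library do not depend on how that library was scaled. The log2 ratios were taken after 1 was added to each value, so they depend on it slightly. With 0.1 added instead, the difference for CAVIN2 to CAV1 given below was -0.88. CAVIN2 stood at 3.85%, 2.45%, 5.43% and 5.93% of the CAV1 level in controls 1 to 4 and at 1.64%, 1.32%, 3.71% and 3.26% in hLcn-2 samples 1 to 4. The log2 ratio of CAVIN2 to CAV1 differed by -0.86 between the groups and was lower in each of the 4 pairs (SD over the pairs 0.27). CAVIN1 stood at 28.6%, 30.2%, 17.8% and 24.8% of CAV1 in controls and at 20.5%, 22.5%, 15.3% and 17.3% after hLcn-2. Its log2 ratio to CAV1 differed by -0.41 (SD over the pairs 0.13) and was lower in each pair. The ratio of CAVIN2 to CAVIN1 was lower in each pair as well, by log2 differences of -0.71 to -0.32. The ratio of CAVIN3 to CAVIN1 was higher in each pair, by 0.038 to 0.66. By contrast, the ratios of CAV2, EHD2 and PACSIN2 to CAV1 were lower in 3 of 4 pairs, with mean differences of -0.13, -0.18 and -0.17 and pair 3 in the opposite direction for all 3. With 1 sample left out, the difference ranged from -0.34 to 0.016 for CAV2 to CAV1 (without hLcn-2 sample 3 and control 3) and from -0.36 to -0.0065 for EHD2 to CAV1 (without hLcn-2 samples 3 and 4). That of CAVIN2 to CAVIN1 ranged from -0.80 to -0.11 (without control 2 and hLcn-2 sample 2) around -0.45. These ratios draw on the same comparison as the set and were not tested.

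**Figure D4:**
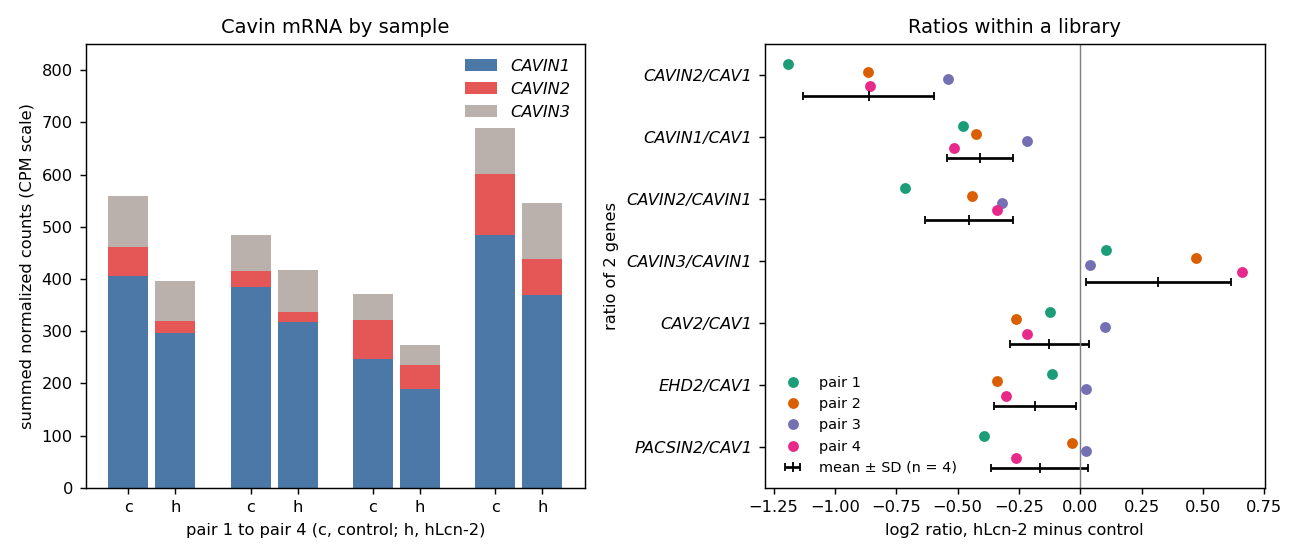
Left, summed normalized counts (CPM scale) of CAVIN1, CAVIN2 and CAVIN3 in each sample, with control and hLcn-2 bars side by side for pairs 1 to 4; the hLcn-2 bar is the lower one in each pair. Right, log2 ratio of 2 genes in the same library, hLcn-2 minus control, for each pair with the mean and SD of the pairs; the ratios of CAVIN2 and CAVIN1 to CAV1 lie below 0 in all 4 pairs.

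Other genes around caveolae were taken from 7 lists with 55 genes, of which 51 were in the table and 50 were tested. In limma 0 of them had an adjusted p-value under 0.05, whether the block was left out (3 genes had an unadjusted p-value below this) or used (8 genes). Over all genes tested these unadjusted shares were 2.28% and 12.2%. In edgeR with the block 1 of the 50 passed, STOML2, which was higher, as were 1.12% of all genes. Of the 50 genes, 8 were lower in all 4 pairs and 3 were higher in all 4, against 10.9% and 9.93% of all genes. Their median log2 difference was -0.021, compared with 0.00083 over all genes tested. The adjusted p-values given below for single genes are from fits with the block. In limma without the block the adjusted p-value of each of these genes was 0.9999.

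Relatives of the members differed in both directions. The muscle genes CAV3 and, at 2.58 ± 1.35 in controls and 2.37 ± 0.569 after hLcn-2 (SD, n = 4), CAVIN4 belong to this list, but CAV3 and the neuronal PACSIN1 were not listed in the table. Of the 5 genes tested 4 were lower and 1 higher, with a median of -0.021. EHD1, a recycling ATPase related to EHD2, had 82.3 ± 14.6 in controls and 69.0 ± 14.5 after hLcn-2 (SD, n = 4). It was lower in 4 of 4 pairs (log2 difference -0.26, adjusted p = 0.274 in limma with the block). EHD4, its relative, had a log2 difference of 0.22 (adjusted p = 0.596 in limma with the block) and was higher in 3 of 4 pairs.

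Among 8 genes of caveolar endocytosis and the link to actin, 4 were higher and 4 lower, with a median of -0.017. DNM2, the dynamin that cuts membrane necks, had a log2 difference of 0.21 (adjusted p = 0.539 in limma with the block). ROR1, a receptor known to hold CAVIN1 and CAV1 together at the membrane, had 19.7 ± 1.63 in controls and 15.4 ± 2.64 after hLcn-2 (SD, n = 4), a log2 difference of -0.34 (adjusted p = 0.386 in limma with the block). Over the 7 protein kinase C isoforms tested the median was 0.078. PRKCH had a log2 difference of -0.35 (adjusted p = 0.422 in limma with the block) and was lower in 4 of 4 pairs, and PRKCI had one of -0.17 (adjusted p = 0.538 in limma with the block). PRKCZ was not listed in the table.

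Flotillins and stomatins build other membrane microdomains. Their median over 5 genes was 0.099, with 3 higher and 2 lower. STOML2, a stomatin of the inner mitochondrial membrane, had 96.6 ± 9.45 in controls and 133.7 ± 25.4 after hLcn-2 (SD, n = 4). It was higher in 4 of 4 pairs, with a log2 difference of 0.45 (adjusted p = 0.0621 in limma and 0.0150 in edgeR, both with the block). FLOT2 had a log2 difference of -0.18 (adjusted p = 0.767 in limma with the block). In the list of caveolin turnover, VCP, the ATPase that extracts caveolin oligomers for degradation, had 224.1 ± 30.6 in controls and 231.5 ± 28.6 after hLcn-2 (SD, n = 4). ANKRD13A had a log2 difference of -0.11 (adjusted p = 0.674 in limma with the block), and the median of the 5 genes was -0.028.

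Of the enzymes for lipids of caveolae, 4 of 7 were higher and 3 lower, with a median of 0.035 that was below 0 in edgeR and DESeq2 (-0.0082 and -0.018 without the block). UGCG, the glucosylceramide synthase, had 1145 ± 303.8 in controls and 951.4 ± 261.4 after hLcn-2 (SD, n = 4) and was lower in 4 of 4 pairs (log2 difference -0.27, adjusted p = 0.148 in limma with the block). PTDSS2, a phosphatidylserine synthase, had a log2 difference of 0.20 (adjusted p = 0.676 in limma with the block). In the clathrin coat, the other main coat of endocytosis, 8 of 13 genes were lower and 5 higher, with a median of -0.058. The light chain gene CLTA had 388.1 ± 47.7 in controls and 316.1 ± 30.4 after hLcn-2 (SD, n = 4), lower in 4 of 4 pairs (log2 difference -0.29, adjusted p = 0.119 in limma with the block). AP2A1 had a log2 difference of -0.32 (adjusted p = 0.442 in limma with the block).

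The genes whose pattern over the 8 samples was most like that of CAVIN2 were COL11A1, CHST9, IGFL2-AS1, KRT223P and RARRES3. Likeness was the root mean square difference of log2 profiles, each centred on its own mean, and was 0.32 for COL11A1, a fibrillar collagen chain, and 0.44 to 0.47 for the others. COL11A1 had 15.8, 9.83, 18.3 and 30.3 in controls 1 to 4 and 11.7, 6.90, 16.3 and 18.0 in hLcn-2 samples 1 to 4. Like CAVIN2 it was highest in number 4 and lowest in number 2 in both groups, and lower after hLcn-2 in each pair. IGFL2-AS1, KRT223P and RARRES3 were also lower in 4 of 4 pairs, and CHST9 in 3. Over all genes tested, 10.9% were lower in all 4 pairs. The genes were picked by their likeness over both groups, so a shared direction and order follow in part from the choice. Of the members, CAV2 was closest to CAVIN2, at 0.63 and rank 214 of 9005 genes, and CAVIN3 the farthest, at 0.92. The samples share libraries and numbers, so that these values are a description.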

How the data were processed

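RNA of 8 CAKI1 samples was read by 3′ mRNA sequencing with UMI. Per the methods of the study, the authors kept each UMI with its read, aligned reads to GRCh38 with STAR, collapsed them by UMI, counted them with HTSeq and normalized with edgeR. The deposited values are a signal of counts scaled by library size (CPM), in which 100% of 134256 values were whole multiples of 1 read (tolerance 0.05 reads or, for large values, 0.001%), so that reads could be recovered. Strand settings were not given in the sources used here. A decimal comma in 1 cell was read as a point, and 2645 of 2810 genes without symbol were named from GENCODE 44.

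Limma 3.58.1 in R 4.3.3 was run two-sided, with an intensity trend, on log2(normalized count + 1) for genes that reached 1 CPM in 2 or more samples, with Benjamini-Hochberg adjustment. Same-numbered samples correlated in all 4 pairs (0.31 to 0.61), compared with at most 0.23 between a control and an hLcn-2 sample of different number. This was taken as pairing, so values with the replicate block are given. The pairing was thus read from these same data, and the fit without the block was the main one planned. Alternatives were other pseudocounts, filters, normalizations, edgeR 4.0.16, DESeq2 1.42.0 and left-out samples. The fits were tested on simulated data. Members and lists were chosen with earlier results of these data known. Named are the 7 members, the 2 genes of each list with the largest absolute log2 difference at a mean of at least 10 CPM and any called by limma, the 5 genes most like CAVIN2 and markers with a level.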

Additional observations from a re-analysis of the deposited data

Results flagged for a closer look

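Over 42 groups of 4 samples, chance alone would set 2.1 apart, and 1 had a sample far from its neighbours. It was PRKCI, an atypical protein kinase C, with 133.4 CPM in control 2 and 98.5 to 103.4 CPM in the other controls. No group of a caveolae gene was of this kind.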

How the results depend on the processing

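Under 31 alternatives CAVIN2, CAVIN1, EHD2 and PACSIN2 stayed lower after hLcn-2. Not all of these could move the log2 difference. In limma a change of the block, the filter or the trend alone left it as it was. Leaving out a whole pair could not turn the sign of a gene that was lower in every pair. CAVIN2 lay between -0.86 and -0.75 with all samples and between -1.16 and -0.53 with samples left out, and CAVIN1 between -0.41 and -0.36, and -0.57 and -0.18. EHD2 lay between -0.18 and -0.14, and -0.26 and -0.025, and PACSIN2 between -0.16 and -0.11, and -0.24 and -0.021. CAV1 and CAV2 changed sign only with samples left out (4 and 2 alternatives), and CAVIN3 in 8, among them edgeR without the block (0.012).

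Calls depended on the replicate block. Without it 0 genes were called by limma, edgeR (324 at an unadjusted p-value under 0.05) or DESeq2 (284). With the block limma called 44 genes, 8 with pseudocount 0.1 and 0 without the intensity trend (both chosen after seeing the data), edgeR 233 and DESeq2 181. With the block and 1 pair left out, 0 to 54 genes were called, 0 of them without pair 3, 3 without pair 2, 13 without pair 1 and 54 without pair 4. The block gave 1 caveolae gene with limma and with pseudocount 0.1, 2 with edgeR and with DESeq2, and 0 to 1 with a pair left out, CAVIN2 being called without pair 1 or 4 and not without pair 2 or 3 or without the trend. The pathway lists had 1 call with edgeR and 1 with DESeq2 under the block. The cause was not tested. The sign of the list medians was not stable, since it turned in 13 of 31 alternatives for lipid enzymes, in 7 for the relatives and in 7 for endocytosis, and in 1 to 3 for the other lists. Depth limits PACSIN2, CAVIN3 and CAVIN2 most, whose lowest samples had 59, 78 and 93 reads.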
